A study of Mus musculus with 6 samples.

Results

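The MET and RON system was followed in MIN6-4N cells, a line of pancreatic beta cells derived from a mouse insulinoma. The genes were 2 receptors (Met and Mst1r), their ligands (Hgf and Mst1), 2 activating proteases (Hgfac and St14), 2 inhibitors of those proteases (Spint1 and Spint2) and the adaptor Gab1. Members were all probe sets whose array annotation gave exactly 1 gene symbol, being one of these 9. This selected 146 of 241419 probe sets and 9 of 20416 genes, and no probe set with several symbols named a member. Cells stably transfected with pcDNA3.1-mMeg3, a plasmid carrying mouse Meg3, an imprinted long non-coding RNA, are called Meg3 here. Cells transfected with empty pcDNA3.1 are called vector. Each group was 3 cultures of 1 clone grown in 15% serum with 500 µg/ml G418, after 5 weeks of selection at 750 µg/ml. The vector clone is labelled Vec-3, and the labels number the Meg3 clone inconsistently. With 1 clone a group, p-values measure the spread between cultures, and whether a difference comes with Meg3 or with the clone cannot be told apart. Sample descriptions mention sorted subpopulations, and no protocol describes a sort. The comparison asks which genes differ when Meg3 is overexpressed in beta cells.

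MET is a receptor tyrosine kinase whose ligand is hepatocyte growth factor (HGF), and RON, encoded by Mst1r, is its close relative, which binds macrophage-stimulating protein (MSP), encoded by Mst1. Both ligands are secreted as inactive precursors and are cleaved by serine proteases, among them HGF activator (Hgfac) and matriptase (St14). The membrane-anchored Kunitz inhibitors HAI-1 (Spint1) and HAI-2 (Spint2) hold those proteases in check. On ligand binding MET recruits GAB1, a docking protein that carries the signal to further pathways. HGF is typically made by mesenchymal cells and acts on neighbouring epithelia, and in rodent islets it is known as a mitogen and survival factor for beta cells.

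Values were log2 intensities, averaged for each gene over its probe sets. Differences are Meg3 minus vector with the standard error of limma's moderated model, and a gene was called at an adjusted p under 0.05 over all 20416 genes. Of these genes 136 were called, 0.666%, of which 0.465% were lower and 0.201% higher. Array medians lay between 7.02 and 7.19. Meg3 replicate 1 and vector replicate 2 stood apart from the other arrays, with an SD about the median of the other arrays of 0.63 and 0.85, against 0.42 to 0.48 for the remaining 4. Leaving out single arrays gave between 22 and 349 called genes, so results whose call or sign changed without those 2 arrays are given both ways. Meg3 RNA itself read 7.24, 7.91 and 7.53 in the Meg3 cultures, against 5.63, 6.00 and 5.88 in the vector cultures (difference 1.72, SE 0.19; limma adjusted p = 0.00756). All 8 beta cell markers, among them Ins2 and Pdx1, had means above the median of all genes (6.66), and their average level was 10.37 to 10.45 in Meg3 cultures and 10.46 to 10.51 in vector cultures. By limma 0 of these 8 were called, beside 0.666% of all genes. Glucagon (Gcg), the alpha cell hormone, was also bright, at 12.58 to 12.79 in Meg3 cultures and 12.72 to 12.95 in vector cultures, as was the ductal keratin gene Krt7, at 9.77 to 10.18 in Meg3 cultures and 9.76 to 10.36 in vector cultures. The other ductal markers, Krt19, Sox9 and Cftr, had means below the median of all genes, so 1 of 4 exceeded it. The RNA is described as isolated from cultures, with no separation of cell types in the protocols, and in such bulk RNA fewer cells of a type and less RNA per cell cannot be told apart.

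**Figure D1:**
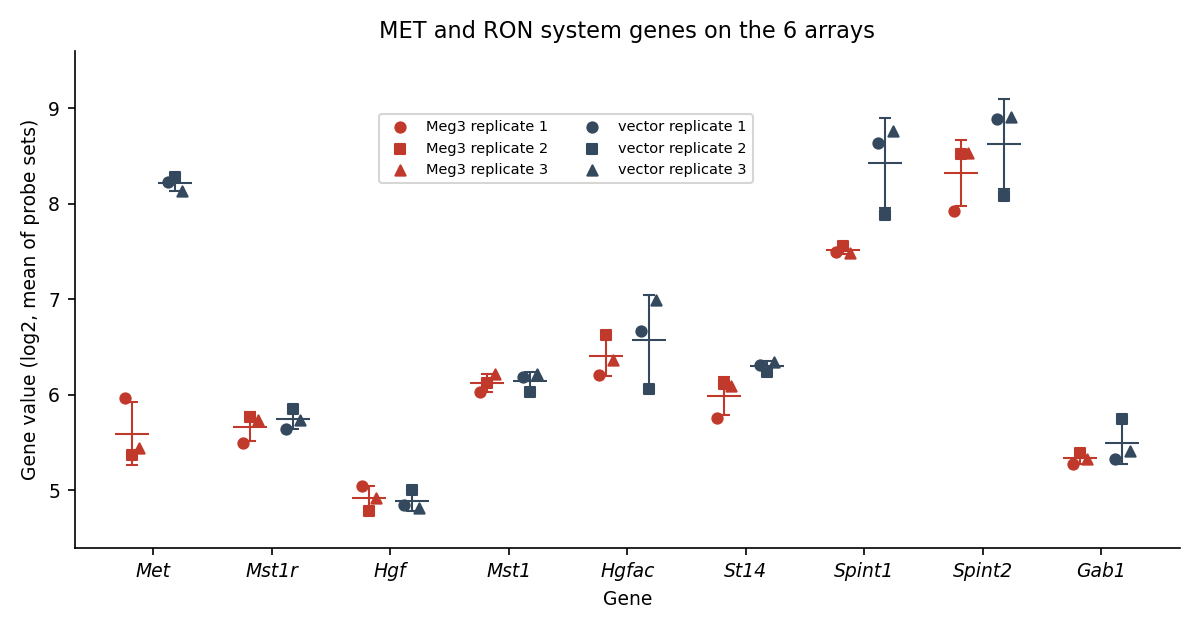
Gene values (log2, mean of all probe sets of a gene) on the 6 arrays, with Meg3 cultures in red to the left of vector cultures in dark blue. Symbols give the replicate, horizontal bars the mean and error bars the SD over 3 cultures. Met separates widely (5.37 to 5.97 in Meg3, 8.13 to 8.28 in vector) and Spint1 by less, with vector replicate 2 nearest to the Meg3 cultures. Levels of different genes come from different probes and should not be compared.

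Met was the member with the largest difference. The Met gene value was 5.97, 5.37 and 5.45 in the Meg3 cultures, against 8.23, 8.28 and 8.13 in the vector cultures. The highest Meg3 culture lay more than 2 log2 units below the lowest vector culture. Met thus averaged 5.59 ± 0.33 in the Meg3 clone and 8.21 ± 0.08 in the vector clone (SD, n = 3 each), a 6.13-fold lower level (log2 difference -2.62, SE 0.17, 95% interval -3.01 to -2.22; limma adjusted p = 0.00150). It ranked 2 of 20416 genes from the most negative difference. It was 1 of 9 members called, beside the 0.666% of all genes, and members were chosen with earlier results of these data known. The exact two-sided permutation test reached p = 0.1, and no smaller p is possible with 3 cultures a clone. With any 1 array left out the difference stayed between -2.80 and -2.50 and was called in all 6 fits.

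Within the Meg3 clone, Met was highest in replicate 1. That array exceeded the mean of the other Meg3 cultures by 0.56, a gap that 1.91% of all genes matched or passed. Without Meg3 replicate 1 and vector replicate 2 the Met difference was -2.77 (SE 0.10; limma adjusted p = 3.40e-06).

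The promoters of Met and Spint1, the members with the largest differences, are shown as the 250 bases before the annotated start (RefSeq, GRCm38.p6). Met lies on chromosome 6 (chr6:17463707-17463956, plus strand) and Spint1 on chromosome 2 (chr2:119237110-119237359, plus strand). Capitals mark the GC box GGGCGG, a binding site of Sp1-family factors, and the AP-1 motif TGANTCA, each searched on both strands. No GC box overlapped an AP-1 motif in either sequence.
Met: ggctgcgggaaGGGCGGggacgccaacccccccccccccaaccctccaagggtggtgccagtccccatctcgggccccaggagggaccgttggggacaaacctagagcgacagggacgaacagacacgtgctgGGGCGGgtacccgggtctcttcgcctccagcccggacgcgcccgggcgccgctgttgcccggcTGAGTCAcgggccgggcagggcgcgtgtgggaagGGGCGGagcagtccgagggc
Spint1: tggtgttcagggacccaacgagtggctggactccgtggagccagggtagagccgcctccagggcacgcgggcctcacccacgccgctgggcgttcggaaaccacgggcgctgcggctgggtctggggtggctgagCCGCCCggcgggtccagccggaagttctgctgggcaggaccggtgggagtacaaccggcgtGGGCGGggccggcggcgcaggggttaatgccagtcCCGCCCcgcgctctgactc
Each of these windows held 3 GC boxes. Of 32851 promoter windows 32.7% held at least 1, and the share holding 3 was not counted. Spint2 also held 3, Gab1 2 and the first start of Mst1r 2. An AP-1 motif was found in the Met window, ending 47 bases before the start, and none was found in the Spint1 window. Of all windows 6.75% held one. GC content was 74% for Met and 72.8% for Spint1, with 69.6% for Spint2 and 70.8% for the first start of Gab1, against a median of 52.4% over all windows. These matches are a description of the letters, and the arrays measured no binding. The windows of the other members with an entry (Mst1r, Hgf, Mst1, Hgfac, Spint2 and Gab1) held no AP-1 motif. St14 had no entry.

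Each of the 20 Met probe sets was lower in the Meg3 clone, and in all 20 the highest Meg3 culture lay below the lowest vector culture. Over all probe sets 5.41% had such a separation in that direction. In the vector clone 17 of the 20 had means above the median of all probe sets (7.13), and in the Meg3 clone 0 did. Tested singly, all 20 had an unadjusted p under 0.05, as did 3.07% of all probe sets in that direction, but 0 passed after adjustment over all 241419 probe sets (limma, lowest adjusted p = 0.0548), where 0.000828% passed.

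The size of the Met difference varied between probe sets. Probe sets are numbered here by array identifier, since no source used here gives positions within the gene, so neighbours in number need not be neighbours in the transcript. Probe set 7 read 4.07, 3.77 and 3.57 in Meg3 cultures, against 8.20, 7.06 and 7.80 in vector cultures, the largest gap (-3.88). Probe set 9 read 4.42, 4.02 and 4.32 in Meg3 cultures, against 8.38, 8.17 and 7.70 in vector cultures (-3.83). In both, every Meg3 culture lay far below the median of all probe sets.

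At the other end, probe set 11 read 7.24, 6.77 and 7.13 in Meg3 cultures, against 7.80, 8.03 and 7.95 in vector cultures (-0.89). Probe set 18 read 6.40, 6.99 and 7.53 in Meg3 cultures, against 8.15, 8.42 and 7.91 in vector cultures (-1.19). In the Meg3 clone their means, 7.04 and 6.97, came close to the median of all probe sets, and the remaining 16 lay between -3.58 and -1.42. Probe set 11 differed from the rest of Met by 1.82 (diffSplice in limma, unadjusted p = 8.16e-05, adjusted p = 0.0763). By that test 0 of 146 member probe sets differed from the rest of their gene, where 0.0801% of all did, although 8 Met probe sets had an unadjusted p under 0.05, as did 4.08% of all. Without the 2 arrays that stood apart 4 Met probe sets passed, in a fit where the share of all probe sets passing was not counted. The test also called probe sets simulated without a change, and with each probe set's own variance, a setting chosen after seeing the data, the lowest adjusted p of a Met probe set was 0.506.

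The excess of Meg3 replicate 1 was also uneven. In 6 of 20 Met probe sets that culture lay more than 1 log2 unit above both other Meg3 cultures, and 4 of these were the consecutively numbered probe sets 12 to 15. Probe set 12 read 7.47 in replicate 1 of the Meg3 clone, 5.07 in replicate 2 and 5.46 in replicate 3, against 9.10, 9.62 and 9.36 in the vector cultures.

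**Figure D2:**
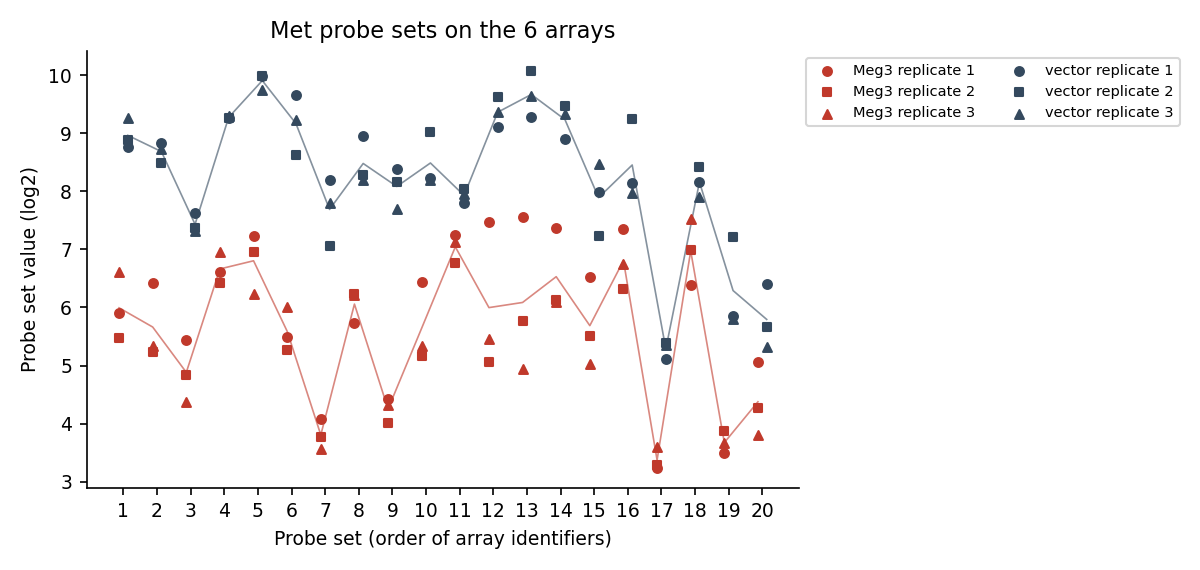
Probe set values of Met (log2) on the 6 arrays, in the order of array identifiers on the x axis, with Meg3 cultures in red left of vector cultures in dark blue; symbols are replicates and lines join group means. The groups are apart at all 20 probe sets, most at number 7 and least at number 11, and Meg3 replicate 1 rises above the other Meg3 cultures at numbers 12 to 15.

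Mst1r, which encodes RON, showed no called difference. The Mst1r gene value was 5.50, 5.77 and 5.74 in the Meg3 cultures, against 5.64, 5.86 and 5.73 in the vector cultures. The groups overlapped, and the difference was -0.08 (SE 0.13, 95% interval -0.37 to 0.22; limma adjusted p = 1.00). Of 19 probe sets 11 had a negative difference and 8 a positive one, from -0.95 to 0.68. Only 2 had means above the median of all probe sets in either clone, and the brightest differed by 0.28. Without the 2 arrays that stood apart the Mst1r difference was 0.0647 (SE 0.10), opposite in sign.

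Neither ligand gene was called. Hgf read 5.05, 4.78 and 4.92 in the Meg3 cultures, against 4.85, 5.01 and 4.81 in the vector cultures. The cultures of the 2 clones interleaved (difference 0.03, SE 0.12, 95% interval -0.26 to 0.31; limma adjusted p = 1.00). Of its 21 probe sets, 11 had negative and 10 positive differences, from -0.40 to 0.62. The mesenchymal markers Col1a1, Col1a2, Col3a1 and Pdgfrb, of the cells that usually make HGF, averaged 6.36 to 6.50 in Meg3 cultures and 6.33 to 6.46 in vector cultures, and 1 of the 4 exceeded the median of all genes. Mst1, the ligand of RON, read 6.03, 6.12 and 6.22 in the Meg3 cultures, against 6.18, 6.03 and 6.22 in the vector cultures. These values overlapped throughout (difference -0.02, SE 0.12, 95% interval -0.29 to 0.25; limma adjusted p = 1.00). Its 18 probe sets split 9 to 9 and ran from -0.77 to 0.66. Of them 2 separated the clones downward and 2 upward, beside 5.41% and 6.08% of all probe sets.

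Of the activating proteases, Hgfac, the secreted serine protease that cleaves pro-HGF, read 6.21, 6.62 and 6.37 in the Meg3 cultures, against 6.67, 6.06 and 6.99 in the vector cultures. The vector cultures spanned the Meg3 range, with replicate 2 the lowest of all 6 arrays (difference -0.17, SE 0.23, 95% interval -0.71 to 0.37; limma adjusted p = 1.00). Without both arrays that stood apart it was -0.33 (SE 0.13; limma adjusted p = 0.207). St14, the membrane protease matriptase, read 5.76, 6.11 and 6.09 in the Meg3 cultures, against 6.32, 6.23 and 6.34 in the vector cultures. All 3 Meg3 cultures lay below all 3 vector cultures, as did 6.39% of genes, but the difference of -0.31 (SE 0.13, 95% interval -0.62 to -0.00326) did not pass (limma adjusted p = 0.709). Its unadjusted p was 0.0481 by limma, and 6.96% of all genes had one under 0.05. Among 21 St14 probe sets 15 were negative. Number 6 showed the largest gap, with 4.56, 5.40 and 5.16 in Meg3 cultures against 6.16, 6.66 and 6.37 in vector cultures. The brightest, number 21, went the other way at 8.71, 8.85 and 9.17 in Meg3 cultures against 8.59, 8.88 and 8.60 in vector cultures, a difference of 0.22 with overlapping groups. A gene value taken from the brightest probe set alone would therefore have the opposite sign for St14.

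Spint1, which encodes HAI-1, had the next largest difference after Met. The Spint1 gene value was 7.50, 7.56 and 7.49 in the Meg3 cultures, against 8.63, 7.88 and 8.76 in the vector cultures. The Meg3 cultures were nearly alike and all lay below the vector cultures, among which replicate 2 was lowest. The means were 7.52 ± 0.04 in the Meg3 clone and 8.42 ± 0.47 in the vector clone (SD, n = 3 each), a 1.88-fold lower level (difference -0.91, SE 0.22, 95% interval -1.41 to -0.40) that was not called (limma adjusted p = 0.185). Its difference was more negative than those of all but 0.558% of genes. The call turned on vector replicate 2, which read 0.81 below the mean of the other vector cultures, a gap that 6.53% of genes matched or passed downward. Without that array the difference was -1.18 (SE 0.11; limma adjusted p = 0.00191). Without it and Meg3 replicate 1 it was -1.17 (SE 0.10; limma adjusted p = 1.62e-04), a setting in which 4.01% of genes were called lower.

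In Spint1, 11 of 12 probe sets were lower in the Meg3 clone, from -1.51 to -0.42, and the remaining one, number 1, differed by 0.13. In 5 of the 12 the clones were separated downward, beside 5.41% of all probe sets. By limma 7 were lower at an unadjusted p under 0.05, beside 3.07% of all probe sets in that direction. After adjustment 0 passed over all probe sets (limma, lowest adjusted p = 0.206). Number 10, the brightest, read 8.58, 8.97 and 9.003 in Meg3 cultures, against 10.23, 10.26 and 10.20 in vector cultures. Here vector replicate 2 stood with its group. This was the probe set with the limma adjusted p of 0.206 over all probe sets. With every gene read from its brightest probe set, the same values were called (difference -1.38, SE 0.16; limma adjusted p = 0.0301). In that setting 40 of all 20416 genes were called. Number 5 read 4.32, 4.64 and 4.02 in Meg3 cultures, against 6.87, 3.70 and 6.94 in vector cultures. There vector replicate 2 fell below every Meg3 culture. In 10 of 12 probe sets vector replicate 2 was the lowest vector culture, and in 11 of 12 every Meg3 culture lay below both other vector cultures. For these counts the shares over all probe sets were not counted, and the second leaves out vector replicate 2.

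**Figure D3:**
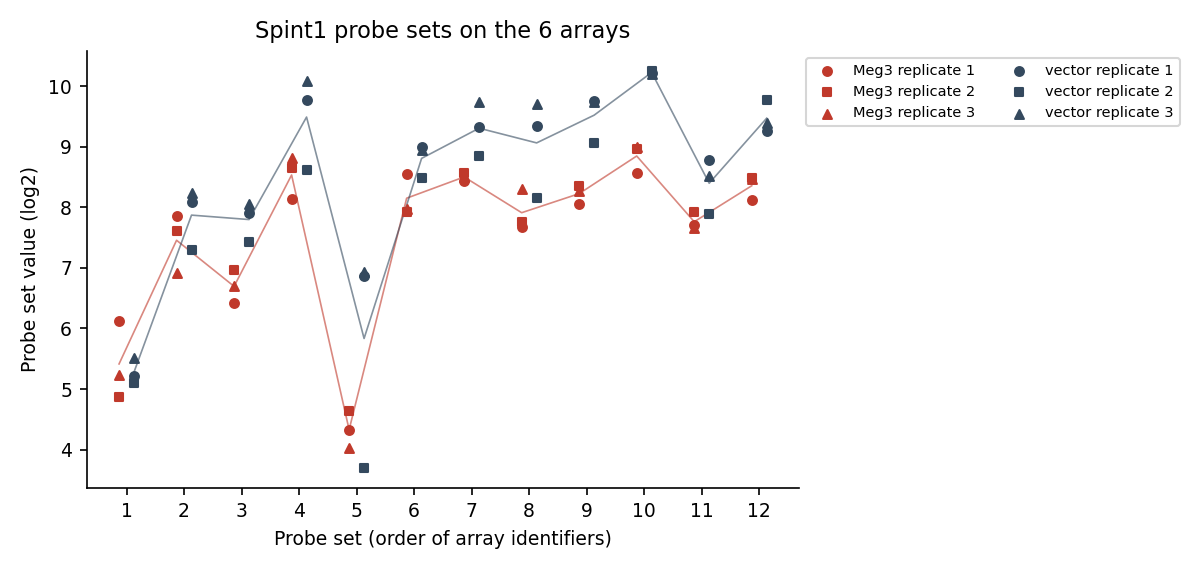
Probe set values of Spint1 (log2) on the 6 arrays, in the order of array identifiers, with Meg3 cultures in red left of vector cultures in dark blue; symbols are replicates and lines join group means. Vector replicates 1 and 3 lie above the Meg3 cultures at 11 of 12 probe sets, whereas vector replicate 2 is often close to the Meg3 cultures and at number 5 falls below them. The share of all probe sets like those 11 was not counted.

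Spint2, which encodes HAI-2, read 7.93, 8.52 and 8.53 in the Meg3 cultures, against 8.89, 8.08 and 8.91 in the vector cultures. Each clone held 1 low array, the same 2 that stood apart, and the groups overlapped (difference -0.30, SE 0.26, 95% interval -0.90 to 0.29; limma adjusted p = 1.00). Vector replicate 2 read 0.82 below the mean of its group's other cultures, and Meg3 replicate 1 read 0.60 below (-0.60). Without both arrays the difference was -0.37 (SE 0.09; limma adjusted p = 0.0528). Of 8 Spint2 probe sets 6 were negative, and 7 had means above the median of all probe sets in both clones. Gab1, the docking adaptor, read 5.28, 5.39 and 5.33 in the Meg3 cultures, against 5.33, 5.75 and 5.41 in the vector cultures (difference -0.16, SE 0.14, 95% interval -0.48 to 0.16; limma adjusted p = 1.00). Vector replicate 2 was the highest of the 6 arrays, and without it the Gab1 difference was -0.0390. Without it and Meg3 replicate 1 it was -0.0106 (SE 0.10). Only 1 of its 13 probe sets was above the median of all probe sets, and that one differed by 0.37, opposite in sign to the gene value.

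**Figure D4:**
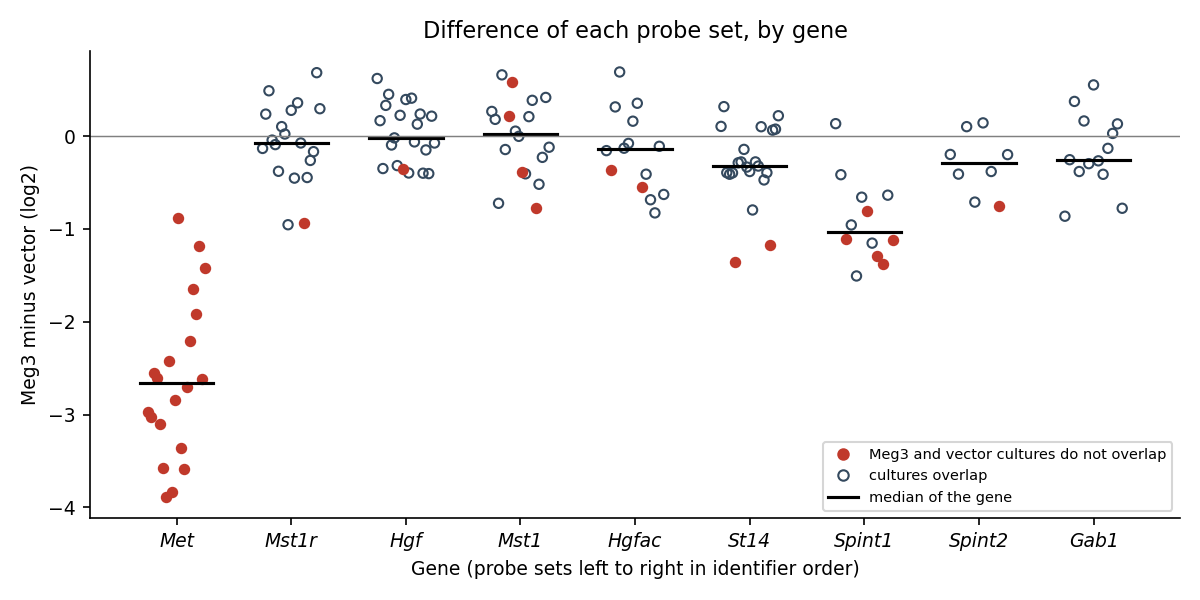
Difference of each member probe set (Meg3 minus vector, log2) by gene, with the median of a gene as a black bar; filled red points are probe sets whose Meg3 and vector cultures did not overlap. All 20 Met probe sets are filled and lie from -3.88 to -0.89, 5 of 12 are filled for Spint1, and the other genes centre near 0 or slightly below it.

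Leaving Met aside, 81 of 126 member probe sets had a negative difference and 45 a positive one, beside 48.8% negative over all probe sets. In 14 of the 126 the clones were separated downward and in 2 upward, beside 5.41% and 6.08% of all probe sets. Probe sets of a gene are not independent, and 5 of those 14 belonged to Spint1.

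**Figure D5:**
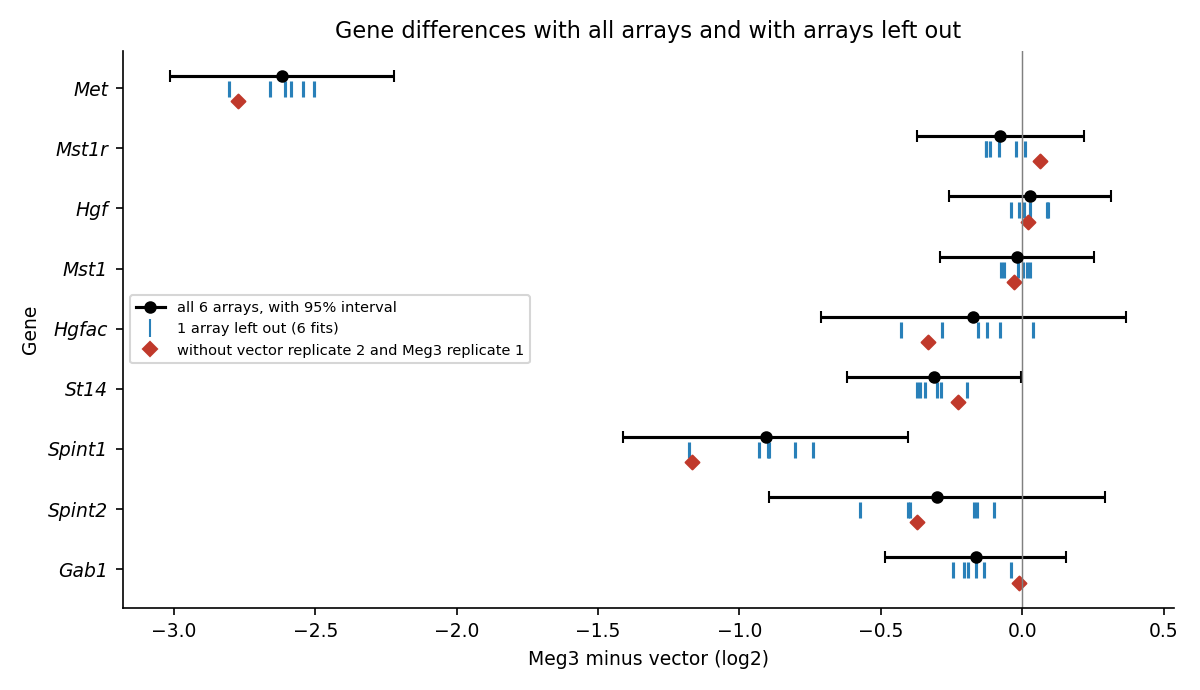
Meg3 minus vector difference of each gene (log2). Black points are all 6 arrays with their 95% interval, blue ticks are the 6 fits with 1 array left out, and red diamonds the fit without vector replicate 2 and Meg3 replicate 1. Met stays between -2.80 and -2.50 with 1 array left out, Spint1 moves to -1.18 without vector replicate 2, and the intervals of Mst1r, Hgf, Mst1, Hgfac, Spint2 and Gab1 include 0.

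Genes around the receptor were followed in lists grouped by role. Among 7 surface partners of MET, 0 were called by limma and 2 had an unadjusted p under 0.05, beside 6.96% of all genes. Of the 7, 4 had negative differences and the median was -0.15, beside 48.4% negative and a median of 0.01 over all genes. The hyaluronan receptor gene Cd44 read 6.36, 6.22 and 6.35 in Meg3 cultures, against 7.12, 6.63 and 7.09 in vector cultures (difference -0.64, SE 0.16; limma adjusted p = 0.194). The laminin-binding integrin gene Itga6 read 9.11, 9.01 and 8.79 in Meg3 cultures, against 9.67, 9.34 and 9.75 in vector cultures (-0.62, SE 0.15; limma adjusted p = 0.201). For both genes the clones did not overlap, and vector replicate 2 was the lowest vector culture. In all, 3 of the 7 partners separated the clones downward, beside 6.39% of all genes. Without the 2 arrays that stood apart both were called lower (Cd44 -0.82, limma adjusted p = 0.00132; Itga6 -0.81, limma adjusted p = 0.00237), beside 4.01% of all genes. The semaphorin receptor gene Plxnb2 differed by 0.12 (SE 0.44), and by -0.13 without those arrays.

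Further proteases and inhibitors acting on pro-HGF or pro-MSP numbered 10, with 5 negative and 5 positive differences and a median of 0.00150. By limma 0 were called and 1 had an unadjusted p under 0.05, beside 0.666% and 6.96% of all genes. The 1 was the urokinase gene Plau (difference -0.40, SE 0.11; limma adjusted p = 0.303), named after its value was seen. Its means, 4.61 in the Meg3 clone and 5.01 in the vector clone, lay below the median of all genes. Plat, tissue plasminogen activator, differed by -0.00711 (SE 0.34), and by -0.16 without the 2 arrays that stood apart, where the median of the list was -0.03. Of 27 adaptors and effectors below MET 14 were negative and 13 positive (median -0.02). Here 0 were called by limma and 3 had an unadjusted p under 0.05, beside 0.666% and 6.96% of all genes. The docking protein gene Gab2, a relative of Gab1, differed by 0.53 (SE 0.31), the phosphoinositide kinase gene Pik3cb by -0.47 (SE 0.14), the GTPase gene Nras by -0.50 (SE 0.14) and the phospholipase gene Plcg1 by 0.31 (SE 0.28). Without the 2 arrays that stood apart 1 of the 27 was called higher (Gab2, 0.51) and 3 lower (Nras, Pik3cb and Shc1, the last chosen after its value was seen), beside 1.43% and 4.01% of all genes. The 10 negative regulators and sheddases of MET had 6 negative and 4 positive differences and a median of -0.10. None was called by limma and 0 had an unadjusted p under 0.05, beside 0.666% and 6.96% of all genes. The receptor phosphatase gene Ptprj differed by -0.35 (SE 0.19), the sheddase gene Adam10 by -0.29 (SE 0.16), and the ubiquitin ligase genes Cbl and Cblb by 0.23 (SE 0.28) and 0.28 (SE 0.30). Without the 2 arrays that stood apart Ptprj was called lower (-0.59, limma adjusted p = 0.00824), 1 of the 10, beside 4.01% of all genes. In that fit Cbl differed by -0.00705 and Cblb by -0.0250, both with the sign turned.

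Among the genes flanking Met, the caveolin gene Cav2 read 5.33, 5.43 and 5.31 in Meg3 cultures, against 6.81, 6.53 and 6.63 in vector cultures (difference -1.30, SE 0.12; limma adjusted p = 0.00446). In a list chosen with earlier results of these data known, it was 1 of 6 flanking genes called, beside 0.666% of all genes. All 6 had negative differences (median -0.26), beside 48.4% of all genes. Of these, Tes (-0.03, SE 0.11) and Wnt2 (-0.02, SE 0.12), named after their values were seen, differed by less than their SE. Cav1 read 4.95, 4.97 and 5.10 in Meg3 cultures, against 5.09, 5.55 and 5.01 in vector cultures, which overlap. The flanking genes Capza2 and St7 each differed by -0.31 (SE 0.18 and 0.15). Without the 2 arrays that stood apart 2 of the 6 were called lower, Cav2 (-1.35, limma adjusted p = 1.06e-04) and St7 (-0.49, limma adjusted p = 0.0203), beside 4.01% of all genes. In that fit Cav1 differed by -0.02 and Wnt2 by 0.08, the latter with the sign turned.

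The genes whose pattern over the 6 arrays was most like that of Met were Tlr2, an innate immune receptor gene (Pearson r = 0.999), Kctd12b (0.995), the paraoxonase gene Pon3 (0.995), the death ligand gene Tnfsf10 (0.995) and the inflammatory caspase gene Casp4 (0.994). They are the highest of 9498 genes compared. These were genes whose higher clone mean exceeded the median of all genes (6.66), without predicted or clone-derived names. Tlr2, Kctd12b and Pon3 passed that limit only through the vector clone, with means of 5.51, 6.41 and 6.16 in Meg3 cultures. Genes outside these limits were not ranked. With 3 cultures of each clone, r rests mostly on the gap between clones and on the higher value of Meg3 replicate 1 within its clone. Tlr2 read 5.68, 5.40 and 5.45 in Meg3 cultures, against 6.79, 6.79 and 6.79 in vector cultures (difference -1.28, SE 0.12; limma adjusted p = 0.00446), and so shared with Met a Meg3 replicate 1 above the other Meg3 cultures. Of these 5 genes only Pon3 lies on chromosome 6 with Met.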

How the data were processed

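Total RNA of 6 cultures, 6 µg each, was hybridised as biotin-labelled material to an Affymetrix array, per the labels' protocols. The deposited values are log2 intensities of probe sets. RMA and Partek are the tools listed, per the submitters' processing notes, with the build and versions not given in the sources used here. Replicates were not pooled. Here the gene value was the mean of all probe sets with exactly 1 symbol (212097 of 241419), with no filter on dim genes. The clones were set against each other by two-sided limma fits (version 3.58.1, R 4.3.3) without covariates, p-values being adjusted by Benjamini-Hochberg across every gene or every probe set, and by diffSplice for probe sets within genes. Both were tested on simulated data, where diffSplice also called probe sets without a change. Named were the members, Meg3, Cav1, Cav2, the markers, called genes of each role list, up to 2 genes each way per list with the largest differences among those above the median of all genes, and the 5 genes most correlated with Met. Those 5 also came only from genes whose higher clone mean exceeded that median, leaving out predicted or clone-derived names. Members and lists were chosen with earlier results of these data known. Some genes of the role and marker lists are not analysed here. Alternatives were a replicate block, other scalings, summaries, filters and variance models, array weights and left-out arrays. Precision is limited by the number of arrays.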

Additional observations from a re-analysis of the deposited data

How the results depend on the processing

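Met kept its direction and call in all 10 other settings (-3.10 to -2.59) and with each array left out (-2.80 to -2.50). The count of called genes moved from 136 to 30 with a replicate block, 58 with the median of a gene's probe sets, 40 with the brightest probe set, 2682 with array weights (whose estimation stopped short of its tolerance) and 1111 without vector replicate 2 and Meg3 replicate 1. It was 79, 26 and 22 without Meg3 replicates 1, 2 and 3, and 59, 349 and 50 without vector replicates 1, 2 and 3. Member probe sets called singly numbered 2 with arrays centred or quantile-normalized again, and 1 with trend and robust estimation or with only probe sets above the median of all. All were Met probe sets. Those differing from the rest of their gene numbered 6 without both arrays that stood apart, and 0 to 2 with 1 array left out (2 of Met without Meg3 replicate 1, 2 of Spint1 without vector replicate 2). For these probe set counts the shares over all probe sets were not counted.

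Signs turned for small differences. With the median of a gene's probe sets Mst1r was 0.0543 and Mst1 0.0444. With the brightest probe set Mst1r was 0.28, Hgf -0.35, Mst1 0.21, St14 0.22 and Gab1 0.37. With only probe sets above the median of all Mst1r was 0.0558, Hgf -0.0940, Mst1 0.23 and Gab1 0.37. Without both arrays Mst1r was 0.0647. With 1 array left out Mst1r ran from -0.13 to 0.00877, Hgf from -0.0393 to 0.0931, Mst1 from -0.0736 to 0.0286 and Hgfac from -0.43 to 0.0378. Array weights called Spint1 (-1.22), Hgfac (-0.51), Spint2 (-0.43) and St14 (-0.28), in a setting that called 2682 of all 20416 genes. For calls and signs that changed, the cause was not tested. Deviations of same-numbered arrays from their group means correlated at -0.61, -0.63 and 0.28. Those of the 2 arrays that stood apart, Meg3 replicate 1 and vector replicate 2, correlated at 0.65. With 2 such arrays of different numbers, these values cannot settle whether the numbers pair the cultures. With the replicate block Met stayed called (limma adjusted p = 0.0176), and 0 member probe sets were called by limma.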

Other observations

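Other receptor tyrosine kinases gave a comparison for Met and Mst1r. Of 28 listed genes, 0 were called by limma with all 6 arrays and 1 had an unadjusted p under 0.05. Over all genes the shares were 0.666% and 6.96%. The median difference of the 28 was -0.07, with 16 negative and 12 positive. The insulin-like growth factor receptor gene Igf1r averaged 9.69 ± 0.50 in the Meg3 clone and 10.18 ± 0.79 in the vector clone (SD, n = 3 each; difference -0.49, SE 0.39). The ephrin receptor gene Epha7 averaged 6.88 ± 0.13 in the Meg3 clone and 6.50 ± 0.12 in the vector clone (difference 0.38, SE 0.13; limma adjusted p = 0.445). It separated the clones upward. Ret, the receptor for GDNF-family ligands, differed by 0.45 (SE 0.28) and Ephb2 by -0.24 (SE 0.12). Without vector replicate 2 and Meg3 replicate 1 the median was 0.03, and 1 of the 28 was called higher and 2 lower, beside 1.43% and 4.01% of all genes. In that fit Ret was called higher (0.58, limma adjusted p = 0.0120) and Igf1r lower (-0.66, limma adjusted p = 0.00454), as was the collagen receptor gene Ddr2 (-0.52, limma adjusted p = 0.0172), a gene picked out once its value was known.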
